A study of Mus musculus with 9 samples.

Results

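The genes described here encode the secretory proteins of the mouse seminal vesicle, followed through RNA sequencing of prostate tissue. There are 10 of them among the 54532 genes of the count table, chosen by name: Svs1, Svs2, Svs3a, Svs3b, Svs4, Svs5, Svs6, Sva, Pate4 and Ceacam10. All 10 passed the filter on low counts and were tested with 16836 genes in all. They were picked with their levels in these libraries, and the ratios between them, already in view, so those levels and ratios are given as a description.

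The 9 libraries, 3 per genotype, are from mice without functional Srd5a2 (Srd5a2-/-, KO), with 1 mutant allele (Srd5a2+/-, Het) or wild type (WT). Srd5a2 encodes a steroid 5-alpha-reductase, which makes dihydrotestosterone out of testosterone. Het males mated to WT C57BL6 females founded the colony, and KO males were obtained by further breeding of the offspring. Neither the age of the mice nor the prostate lobes taken is stated in the labels, nor is it said that each library is 1 animal, so the spread behind each p-value may be technical.

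The seminal vesicles are glands that drain beside the prostate and, in rodents, fill with a few very abundant androgen-dependent secretory proteins. On ejaculation several of these are cross-linked by transglutaminase 4, an enzyme of the anterior prostate, into the copulatory plug. Svs2 encodes the main plug protein, which also coats sperm. Svs3a and Svs3b encode further plug components, and Svs1 encodes a plug protein related to amine oxidases. Svs4, Svs5 and Svs6 encode small secreted proteins of the same rapidly evolving family as Svs2. Pate4 (also called SVS VII), Sva (seminal vesicle autoantigen, related to prolactin-induced protein) and Ceacam10 (a secreted member of the carcinoembryonic antigen family) encode proteins that bind to sperm.

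Total counts were 16233392 to 24017791 per library. Srd5a2 stood at 0.511 to 1.15 CPM in KO, at 2.37 to 5.19 CPM in Het and at 2.30 to 8.81 CPM in WT libraries, where CPM is the read count over the TMM-scaled library size. The prostate regulator Hoxb13 was present in every library, at 45.1 to 529 CPM. Some libraries stood apart within their genotype. Sbp, which encodes a secretion of the ventral prostate, was at 7.26 CPM in Het 2 and at 0.993 and 16.0 CPM in WT 1 and WT 3, against 34340 CPM or more in the other 6 libraries. Het 1 had the lowest summed level of smooth muscle markers (1190 CPM, against 3172 to 7604 CPM in the other 8).

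Together the 10 genes took 10.3%, 10.6% and 19.8% of all counts in KO, 0.653%, 32.5% and 11.1% in Het and 7.19%, 3.34% and 21.4% in WT. The exact 95% binomial interval was 0.649% to 0.657% for Het 1 and 32.52% to 32.56% for Het 2, and such intervals cover counting error only. The genotypes overlapped, and the lowest and the highest share were both in Het libraries. In bulk tissue fewer cells of a type and less RNA per cell cannot be told apart.

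The genes fell into sets that differed in how they varied. Svs2, Svs5 and Pate4 were abundant in all 9 libraries. Svs1, Svs3a, Svs3b, Svs6, Sva and Ceacam10 were abundant in the KO libraries and in WT 3, lower in WT 2, and lower still, at 0 to 77.0 CPM, in WT 1 and all 3 Het libraries. Svs4 lay between the sets. These sets were drawn after the values were seen.

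**Figure D1:**
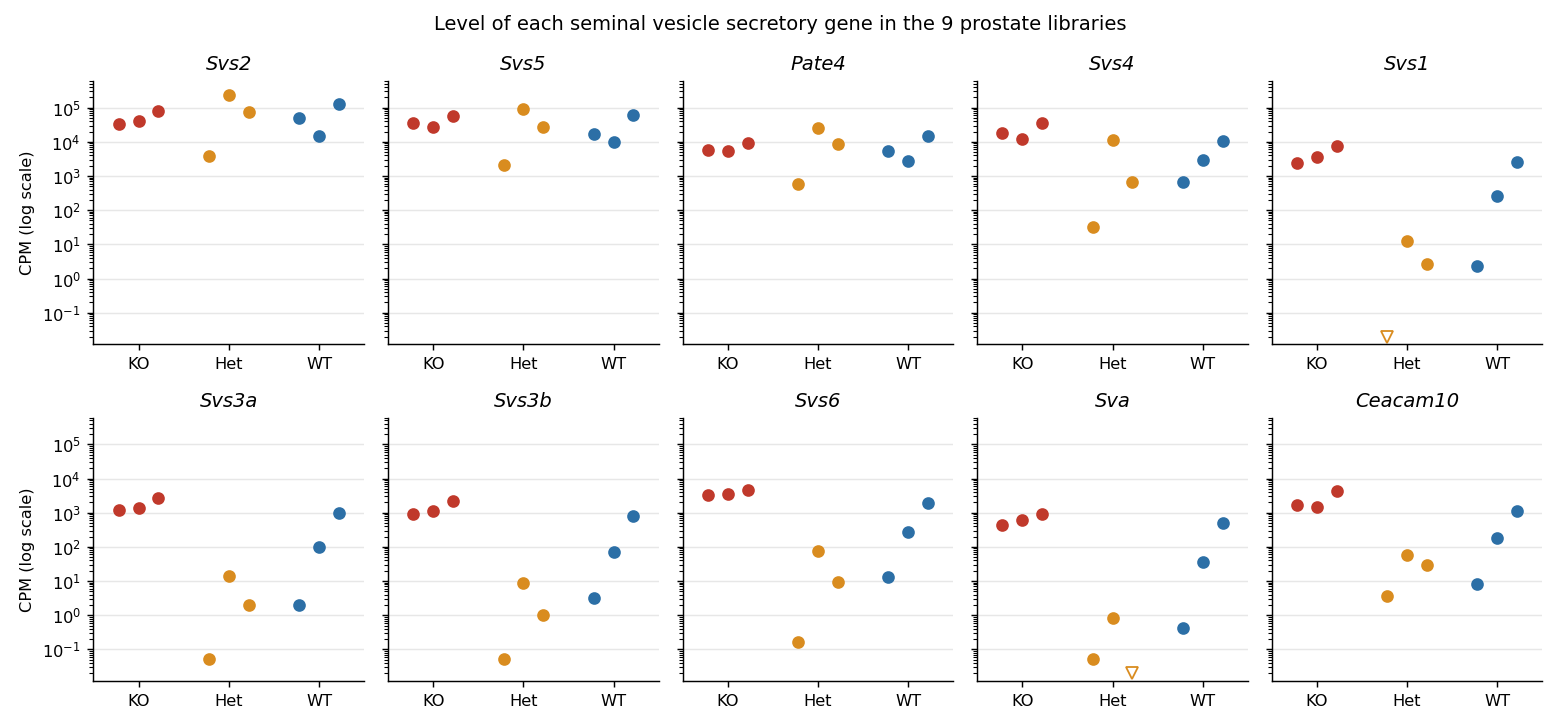
Level of each gene in CPM (log axis) by genotype, with 1 point per library and libraries 1 to 3 from left to right within a genotype; open triangles mark a count of 0, drawn at the foot of the axis. Svs2, Svs5 and Pate4 lie above 500 CPM in every library, while Svs1 and Sva reach 0 in Het 1 and Het 3.

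Among the plug proteins, Svs2 (ENSMUSG00000040132, chromosome 2, 164235929 to 164238466 on GRCm38, minus strand) stood at 32350, 41080 and 77360 CPM in KO, at 3898, 230400 and 76000 CPM in Het and at 48790, 14780 and 127800 CPM in WT libraries. Its lowest and highest values, 59.1-fold apart, were both in Het, and the 3 genotypes overlapped. By FPKM, which also divides by gene length, it ranked between 2 and 15 among all genes in every library.

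Svs1 (ENSMUSG00000039215, chromosome 6, 48986861 to 48991722, plus strand) behaved otherwise. It stood at 2457, 3492 and 7663 CPM in KO, at 0, 12.3 and 2.65 CPM in Het and at 2.40, 254 and 2485 CPM in WT libraries. Its counts were 44772, 61436 and 146645 in KO, 0, 267 and 48 in Het and 46, 5738 and 47969 in WT. A count of 0 in Het 1 allows up to 0.162 CPM. Every KO library lay above every Het library, the WT libraries spanned the gap between them, and WT 3 reached the level of KO 1.

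Svs3a (ENSMUSG00000017003, chromosome 2, 164289268 to 164291500, plus strand) stood at 1224, 1383 and 2618 CPM in KO, at 0.0540, 14.5 and 1.99 CPM in Het and at 1.99, 97.6 and 970 CPM in WT libraries. Svs3b (ENSMUSG00000050383, chromosome 2, 164254363 to 164256640, minus strand) followed it, at 894, 1101 and 2247 CPM in KO, 0.0540, 8.77 and 0.993 CPM in Het and 3.14, 69.3 and 815 CPM in WT. For both genes the 3 KO libraries were above all other libraries, and Het 1 held a single read. They are near copies: 41.2% of the 50-base stretches of the longest Svs3a transcript also occur in another gene, most of them in Svs3b, so the counting may have split reads between them. The ratio of Svs3a to Svs3b counts was 1.37, 1.26 and 1.17 in KO and 1.41 and 1.19 in WT 2 and WT 3. It was 1, 1.65 and 2 in Het and 0.633 in WT 1, where the counts of either gene were at most 316.

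Among the small proteins of the family, Svs5 (ENSMUSG00000017004, chromosome 2, 164332740 to 164334396, plus strand) stood at 34680, 28050 and 55340 CPM in KO, at 2067, 91440 and 27710 CPM in Het and at 17180, 10000 and 61270 CPM in WT libraries. The genotypes overlapped, as for Svs2. By FPKM it ranked above every other gene in 6 of the 9 libraries, and per length it exceeded Svs2 in each library, by 3.29-, 2.10- and 2.20-fold in KO, 1.63-, 1.22- and 1.12-fold in Het and 1.08-, 2.08- and 1.47-fold in WT.

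Svs6 (ENSMUSG00000017000, chromosome 2, 164316751 to 164318453, plus strand), by contrast, had 3282, 3621 and 4494 CPM in KO, 0.162, 77.0 and 9.26 CPM in Het and 13.3, 264 and 1890 CPM in WT libraries. All KO values were above all WT and Het values.

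Svs4 (ENSMUSG00000016998, chromosome 2, 164275952 to 164278459, minus strand) stood at 17790, 11950 and 34710 CPM in KO, at 33.3, 10940 and 658 CPM in Het and at 651, 2863 and 10890 CPM in WT libraries. KO libraries were again above the rest, but Het 2 and WT 3 came close to KO 2. Svs6 and Svs1 were far lower in Het 2 than in any KO library.

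Of the proteins that bind sperm, Pate4 (ENSMUSG00000032099, chromosome 9, 35607093 to 35611941, minus strand) stood at 5915, 5379 and 8986 CPM in KO, at 589, 25980 and 8839 CPM in Het and at 5516, 2779 and 14680 CPM in WT libraries. Its order over the libraries was close to that of Svs2, with Het 1 lowest and Het 2 highest.

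Sva (ENSMUSG00000023289, chromosome 6, 42038394 to 42042851, plus strand) had 445, 607 and 944 CPM in KO, 0.0540, 0.827 and 0 CPM in Het and 0.418, 36.1 and 508 CPM in WT libraries. Its Het counts were 1, 18 and 0 reads, and the 0 in Het 3 allows up to 0.165 CPM. WT 3 lay between KO 1 and KO 2.

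Ceacam10 (ENSMUSG00000054169, chromosome 7, 24777206 to 24784657, plus strand) had 1723, 1478 and 4248 CPM in KO, 3.73, 56.5 and 30.2 CPM in Het and 8.36, 183 and 1123 CPM in WT libraries. The KO libraries were above the rest. In Het it had 69, 1230 and 548 reads, more than Svs1, Svs3a, Svs3b and Sva in each library and more than Svs6 in all but Het 2. Of the 50-base stretches of its longest transcript, 4.6% also occur in other genes, in Ceacam1 more than any other. Whether some of these reads came from such genes was not tested.

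Ratios within a library do not depend on how libraries are scaled to each other. Per 1000 reads of Svs2, Svs1 had 75.9, 85.0 and 99.1 reads in KO, 0, 0.0532 and 0.0348 in Het and 0.0493, 17.2 and 19.5 in WT libraries. The 9 libraries thus held 3 levels of this ratio: the KO libraries, WT 2 with WT 3, and the 4 others. Het 2, with 5016971 Svs2 reads, had 267 of Svs1.

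The other genes of this set kept the same 3 levels. Svs6 had 101, 88.1 and 58.1 reads per 1000 of Svs2 in KO, 0.0416, 0.334 and 0.122 in Het and 0.273, 17.9 and 14.8 in WT. Sva had 13.8, 14.8 and 12.2 in KO, 0.0139, 0.00359 and 0 in Het and 0.00857, 2.44 and 3.98 in WT. Ceacam10 had 53.3, 36.0 and 54.9 in KO, 0.956, 0.245 and 0.398 in Het and 0.171, 12.4 and 8.79 in WT.

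Pate4 and Svs5 stayed close to Svs2. Pate4 had 183, 131 and 116 reads per 1000 of Svs2 in KO, 151, 113 and 116 in Het and 113, 188 and 115 in WT libraries. Svs5 had 1072, 683 and 715 in KO, 530, 397 and 365 in Het and 352, 677 and 480 in WT. The KO libraries were above the Het libraries for the Svs5 ratio, and WT 2 lay just below KO 2.

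Svs4 was graded between these patterns, with 550, 291 and 449 reads per 1000 of Svs2 in KO, 8.54, 47.5 and 8.66 in Het and 13.3, 194 and 85.3 in WT. In the libraries where Svs1 and Sva were nearly absent, Svs4 still held 8.54 to 47.5 reads per 1000 of Svs2.

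**Figure D2:**
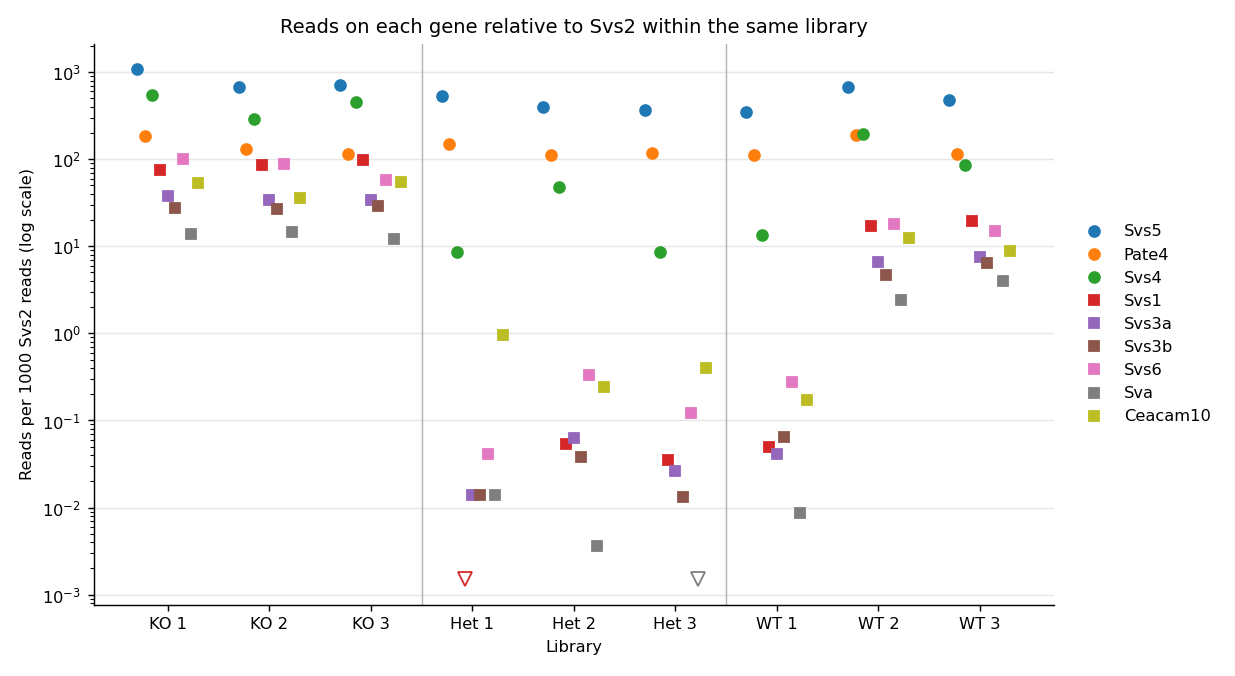
Reads on each gene per 1000 reads of Svs2 in the same library (log axis), for the 3 KO, 3 Het and 3 WT libraries; circles are Svs5, Pate4 and Svs4, squares the other 6 genes, and open triangles a count of 0, drawn at the foot of the axis. Svs5 and Pate4 stay between 112.7 and 1072 in all libraries, while the squares lie at 12.2 or above in KO, below 1 in Het and WT 1, and between 2.44 and 19.5 in WT 2 and WT 3.

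Over the 9 libraries, the SD of the log2 ratio to Svs2 (CPM plus 1) was 0.30 for Pate4, 0.53 for Svs5 and 2.41 for Svs4, and 3.38 to 4.93 for the other 6 genes. Measured against Svs6, the same SD was 0.70 for Svs3a, 0.82 for Svs3b, 1.14 for Svs1, 1.15 for Ceacam10 and 1.40 for Sva. The division of reads within the set followed: Svs2, Svs5 and Pate4 made up 72.4%, 75.9% and 71.3% of the reads on the 10 genes in KO, 99.4%, 96.9% and 99.4% in Het and 99.1%, 88.0% and 91.6% in WT.

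In the genome, 6 of the genes lie within 98.5 kb on chromosome 2 and are the only genes of the count table inside that span. Their order is Svs2, Svs3b, Svs4, Svs3a, Svs6 and Svs5, with the 3 nearer Svs2 on the minus strand and the 3 nearer Svs5 on the plus strand. Svs2 and Svs5, the 2 outermost genes, were abundant in every library, while Svs3b, Svs3a and Svs6, which lie between them, had 1, 1 and 3 reads in Het 1. Svs6 and Svs5 are 14287 bases apart, and in Het 2 they had 1677 and 1991123 reads. Outside the span, Wfdc15b, a gene of the whey acidic protein family beyond Svs2, had 78.3, 63.3 and 158 CPM in KO, 1.03, 180 and 55.0 CPM in Het and 29.7, 43.8 and 117 CPM in WT libraries. Within 100 kb of a cluster gene, Stk4, which encodes a kinase, and Sdc4, which encodes a cell surface proteoglycan, were at 19.4 to 36.8 CPM and 78.9 to 169 CPM over the 9 libraries. Of the neighbours at that distance on other chromosomes, Malsu1 near Svs1 was at 10.2 to 21.9 CPM, Cdon near Pate4 at 17.9 to 35.9 CPM and Rps19 near Ceacam10 at 370 to 702 CPM.

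**Figure D3:**
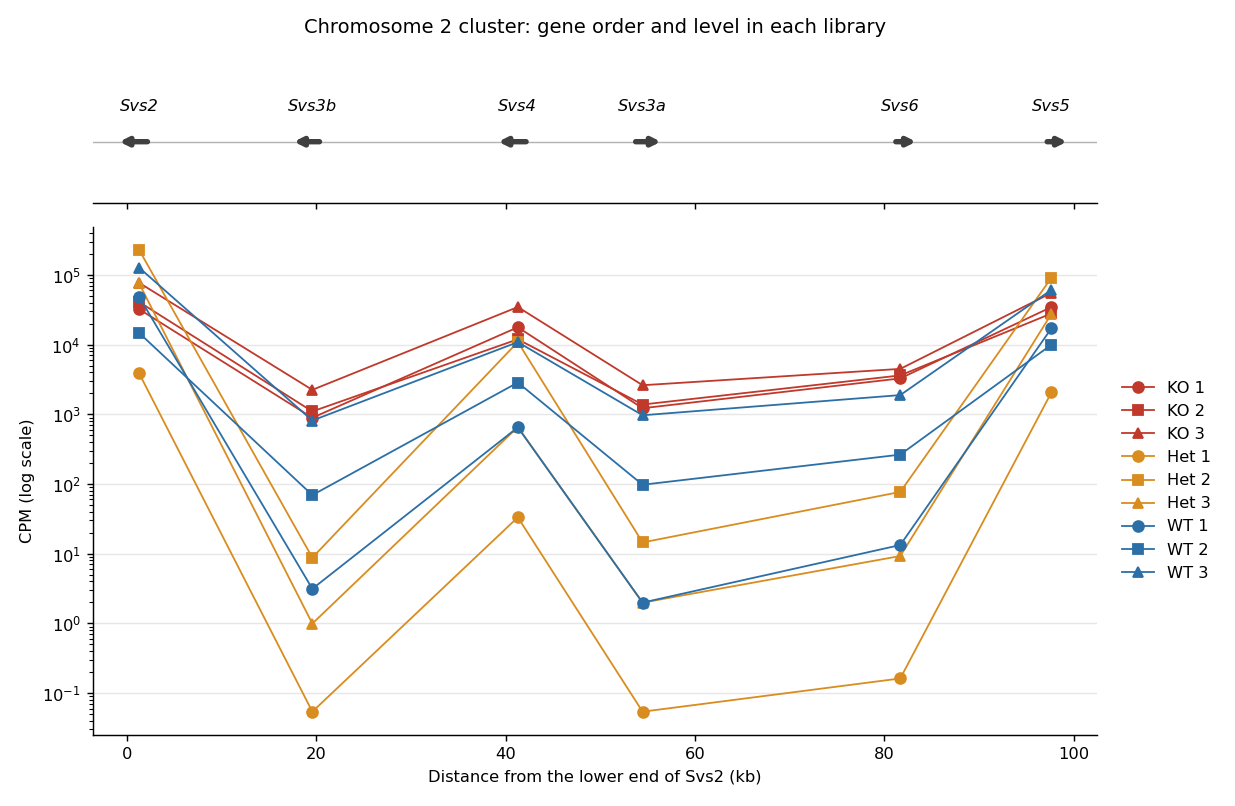
Top, the 6 chromosome 2 genes drawn to scale by distance from the lower end of Svs2, with arrows in the direction of transcription; bottom, the level of each gene in CPM (log axis) at the same positions, with 1 line per library. Svs2 and Svs5 at the ends stay above 2000 CPM in all 9 libraries, and the genes between them spread down to 0.054 CPM in Het 1.

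Promoter windows were compared because neighbouring genes of 1 family differed so much in level. RefSeq windows of 300 bases on GRCm38.p6, from 250 before to 50 after the start, were found for 9 of the 10 genes (Pate4 was not matched). Svs6 and Svs5, neighbours of unlike level, are shown here with capitals at the bases that differ between them in the alignment (Svs6 chr2:164316501-164316800, plus strand; Svs5 chr2:164332515-164332814, plus strand).
Svs6: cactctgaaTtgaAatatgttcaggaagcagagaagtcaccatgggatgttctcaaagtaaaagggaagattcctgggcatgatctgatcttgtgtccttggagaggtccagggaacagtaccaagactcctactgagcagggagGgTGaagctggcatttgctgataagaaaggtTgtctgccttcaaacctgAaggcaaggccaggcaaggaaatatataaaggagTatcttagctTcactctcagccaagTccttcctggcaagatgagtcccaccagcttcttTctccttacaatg
Svs5: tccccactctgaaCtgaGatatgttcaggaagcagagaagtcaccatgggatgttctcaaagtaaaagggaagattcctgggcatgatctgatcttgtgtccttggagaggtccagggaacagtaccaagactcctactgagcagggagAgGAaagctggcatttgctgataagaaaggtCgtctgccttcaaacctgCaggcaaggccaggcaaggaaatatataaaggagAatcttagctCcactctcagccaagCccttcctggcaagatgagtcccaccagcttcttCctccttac

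These windows shared 285 of 296 aligned bases (96.3%), with no gap. The ratio of Svs5 to Svs6 reads was 10.6, 7.75 and 12.3 in KO, 12760, 1187 and 2991 in Het and 1289, 37.9 and 32.4 in WT libraries. The part of the 11 differing bases in these levels was not tested. Neither gene shares a 50-base stretch of its longest transcript with another gene, so their reads can be told apart at that length.

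Svs3a and Svs3b, which moved together, are the other close pair, again with capitals at the bases that differ between them (Svs3a chr2:164289017-164289316, plus strand; Svs3b chr2:164256594-164256893, minus strand).
Svs3a: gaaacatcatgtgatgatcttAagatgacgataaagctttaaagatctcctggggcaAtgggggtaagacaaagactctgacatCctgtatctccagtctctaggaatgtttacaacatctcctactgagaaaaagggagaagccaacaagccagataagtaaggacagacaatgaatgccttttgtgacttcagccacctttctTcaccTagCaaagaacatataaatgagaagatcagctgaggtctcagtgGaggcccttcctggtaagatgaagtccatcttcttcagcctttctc
Svs3b: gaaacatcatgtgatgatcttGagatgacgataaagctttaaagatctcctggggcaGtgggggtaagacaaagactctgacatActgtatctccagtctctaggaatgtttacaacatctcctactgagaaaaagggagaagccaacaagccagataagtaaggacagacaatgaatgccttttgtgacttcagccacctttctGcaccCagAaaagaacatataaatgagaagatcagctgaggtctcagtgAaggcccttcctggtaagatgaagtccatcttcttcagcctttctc

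They shared 293 of 300 bases (97.7%). The window of Svs2, the most abundant plug gene, is given with capitals at TGATAA and AGATAA, the core letters read by GATA factors (chr2:164238292-164238591, minus strand).
Svs2: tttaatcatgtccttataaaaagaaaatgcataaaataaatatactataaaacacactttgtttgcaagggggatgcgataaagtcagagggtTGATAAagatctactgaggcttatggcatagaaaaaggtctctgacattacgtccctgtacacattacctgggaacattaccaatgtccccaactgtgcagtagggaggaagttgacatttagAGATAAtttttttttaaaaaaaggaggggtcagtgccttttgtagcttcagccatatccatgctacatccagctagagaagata

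All 15 pairs among the 6 cluster genes aligned over at least 200 bases, at 66.2% to 97.7% identity, so these windows share sequence and are not independent of each other. No pair that involves Svs1, Sva or Ceacam10 did. On either strand, TGATAA or AGATAA occurred in 7 of the 9 windows (the 6 cluster genes and Svs1), against 18.6% of 32851 mouse promoter windows of that length. TATAAA, the letters of a TATA box, occurred in 6 of the 9, all in the cluster, against 13.6% of all windows. AGAACA, the core letters read by the androgen receptor, occurred in 7 of the 9 (not in Svs2 or Svs4), against 19.0% of all windows. For Svs2 and Svs4 the deposited table starts the gene further upstream, at 164238466 and 164278459, than the RefSeq start used. Their windows therefore reach less far before that start, and the letters they hold or lack apply to these windows only. Its inverted repeat with a gap of 3 bases occurred in 0 of the 9, against 0.00913% of all windows. The motifs were chosen after the sequences were seen, and a match is letters in a window, not a binding site.

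Over the whole table, each tested gene was also set against Svs2, Svs5 and Svs1 by the SD of its log2 ratio (CPM plus 1) over the 9 libraries, where a small SD means a ratio that hardly varied. The 5 genes closest to Svs2 outside the set were Kcnq1 (SD 0.18), which encodes a potassium channel, Cdo1 (0.23), which encodes cysteine dioxygenase, Foxi1 (0.23), a forkhead transcription factor of ion-transporting epithelia, Cwh43 (0.27) and Lpo (0.27), which encodes lactoperoxidase. Svs2 itself had an SD of 1.74 on that log2 scale, the median SD of the ratio over the 16835 genes compared was 1.78, and Pate4 came sixth at 0.30.

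Kcnq1 followed Svs2 over the whole range, with 15.8, 22.6 and 34.4 CPM in KO, 1.35, 110 and 36.5 CPM in Het and 19.6, 6.47 and 51.8 CPM in WT libraries. Foxi1 had 13.1, 21.1 and 28.5 CPM in KO, 1.08, 108 and 37.7 CPM in Het and 20.0, 8.25 and 49.3 CPM in WT. The genes closest to Svs5 outside the set were Shisa4 (SD 0.28), Ppp2r2b (0.40), Cdo1 (0.40), Lcn2 (0.44), which encodes lipocalin 2, and Slc4a8 (0.44), which encodes a bicarbonate transporter.

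**Figure D4:**
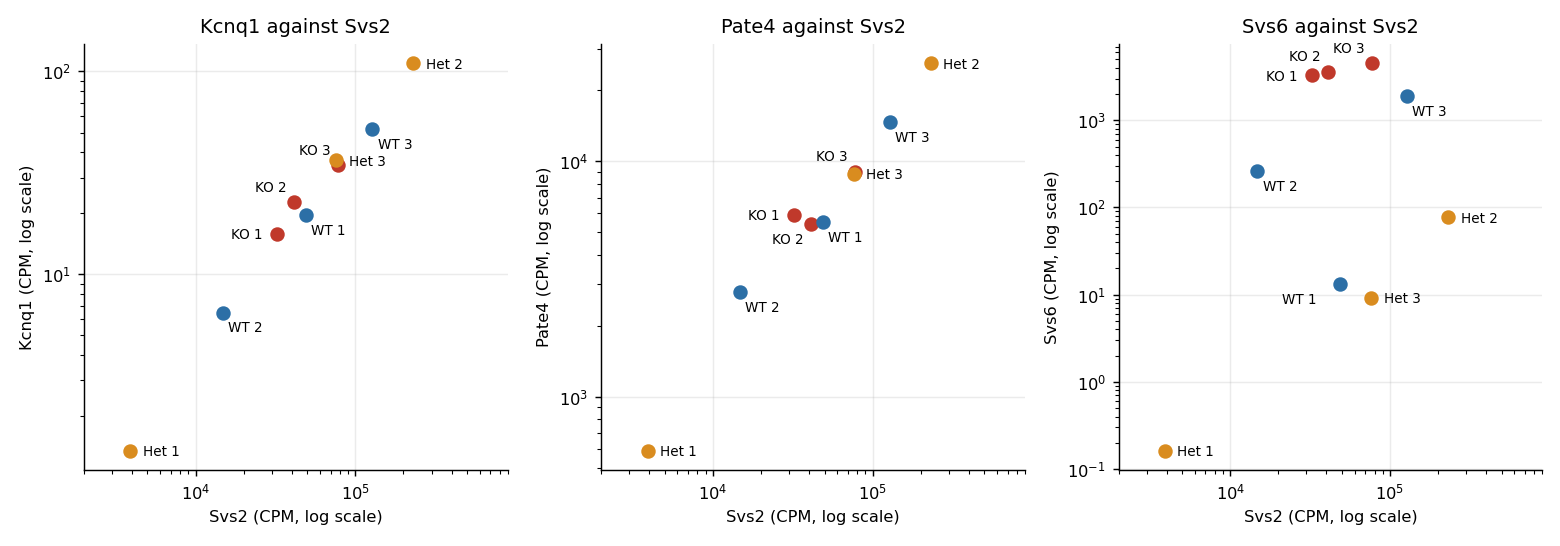
Levels of Kcnq1, Pate4 and Svs6 against Svs2 in CPM (log axes), with 1 labelled point per library. Kcnq1 and Pate4 lie along a line from Het 1 to Het 2, while Svs6 runs from 0.162 CPM in Het 1 to 4494 CPM in KO 3 with no such order.

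Svs1 had no companion as close. Svs3a (SD 0.70), Svs3b (0.83), Sva (0.98), Svs6 (1.14) and Ceacam10 (1.69) came before any other gene, against an SD of 5.11 for Svs1 itself and a median of 5.10 over the genes compared. Outside the set the nearest were Dnase2b (2.31), which encodes an acid DNase, Spinkl (2.39), which encodes a protease inhibitor of seminal vesicle secretion, and the skeletal muscle genes Myh4 (2.72), Atp2a1 (2.89) and Tnnt3 (2.92). Dnase2b had 47.6, 75.4 and 152 CPM in KO, 0, 1.33 and 0 CPM in Het and 0, 2.71 and 48.2 CPM in WT libraries. Spinkl had 765, 669 and 1449 CPM in KO, 0, 413 and 1.32 CPM in Het and 10.03, 183 and 579 CPM in WT, so that in Het 2 it was high together with Svs4.

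Markers of other tissues are given beside these levels. The 10 skeletal muscle markers summed to 761 to 5319 CPM in KO, 144 to 671 CPM in Het and 343 to 1324 CPM in WT libraries. The 5319 CPM was in KO 2, against 761 and 1039 CPM in KO 1 and KO 3. Acta1 made up most of the sum in Het, at 134, 627 and 528 CPM. It also did in WT 1 and WT 2, at 330 and 660 CPM. Tnnt3 was at 38.0, 519 and 65.95 CPM in KO, 1.03, 0 and 0.662 CPM in Het and 0.157, 0.310 and 50.7 CPM in WT. Ckm kept 2.38, 29.6 and 16.5 CPM in Het. Myh4, which encodes a fast myosin, was at 27.8, 1077 and 105 CPM in KO, at 0 in all 3 Het libraries and at 0, 0 and 61.4 CPM in WT. The list's median log2 fold change was 3.36 in KO against WT (10 of 10 positive), -2.80 in Het against WT (1 of 10) and 6.22 in KO against Het (10 of 10), and edgeR called 0 of the 10 in each. No marker of skeletal muscle was at 0 throughout, and the part of muscle tissue in the levels of Svs1 and its companions was not tested. The 7 smooth muscle markers summed to 4291 to 5966 CPM in KO, 1190 to 7604 CPM in Het and 3172 to 6648 CPM in WT. The 6 urothelial markers summed to 343 to 380 CPM in KO, 354 to 412 CPM in Het and 127 to 305 CPM in WT, and none was at 0 throughout. Upk1a and Upk1b made up 288 and 104 of the 396 CPM in Het 1. The others were not steady: Upk2, Upk3a, Upk3b and Krt20 had 1.73, 0, 1.13 and 0.324 CPM in Het 1. In Het 2 they had 44.5, 57.1, 20.9 and 13.0 CPM. Of the 15 epididymis and vas deferens markers, Lcn9, Lcn10, Spint4, Spag11b, Cst11 and Rnase9 were at 0 in every library, and the rest summed to 524 to 927 CPM in KO, 198 to 3791 CPM in Het and 481 to 1323 CPM in WT. Single genes carried these sums: Crisp1 made up 3567 of the 3791 CPM in Het 3. In Het 1, where Crisp1 was at 0, Defb1 made up 184.5 of the 197.5 CPM. edgeR called 0 of the smooth muscle, urothelial and epididymal markers it tested, and the part of these tissues was not tested either.

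The seminal vesicle grows from the Wolffian duct and the prostate from the urogenital sinus, and each has its own transcription factors. Pax2, a factor of the Wolffian duct, stood at 9.49, 16.5 and 25.5 CPM in KO, 1.46, 35.5 and 33.3 CPM in Het and 20.4, 4.70 and 30.2 CPM in WT libraries, lowest in Het 1 and WT 2. Emx2, another such factor, had 33.7, 40.0 and 52.8 CPM in KO, 5.62, 182 and 80.5 CPM in Het and 56.7, 17.0 and 101 CPM in WT. Hoxd9 likewise had its lowest value in Het 1, at 6.86 CPM, and its highest in Het 2, at 79.1 CPM. Other factors on the list went the other way: in Het 2 and Het 1, Hoxa9 had 9.14 and 29.0 CPM, Hoxa10 29.1 and 52.8 CPM and Hoxd11 1.61 and 4.37 CPM, each with its lowest value of all 9 libraries in Het 2. Pax8 was lowest in Het 1 and highest in Het 3, at 0.270 and 44.2 CPM, while Hoxa11 and Hoxd10 were lowest in WT 3 and Het 3, at 6.73 and 0.551 CPM. Of 10 Wolffian duct factors 9 were tested, of 10 prostate factors 9, and of 12 prostate secretory genes 12, and edgeR called 0 of them in any comparison. The genes listed as prostate secretory summed to 93660 to 127400 CPM in KO, 18100 to 243800 CPM in Het and 76890 to 178700 CPM in WT, lowest in Het 2, where Svs2 was highest. Sbp and 9530053A07Rik carried the sum, at 143900 and 67140 CPM in Het 1 and 7.26 and 14090 CPM in Het 2. Pbsn and Azgp1 were also lowest in Het 2, at 2506 and 87.9 CPM. Acpp and Fkbp5 were not: they had 13.1 and 237.5 CPM in Het 2, against 5.02 to 6.89 and 80.1 to 172 CPM in WT.

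Tgm4, the transglutaminase that cross-links the plug, is made by the prostate and did not share the order of Svs2. It had 5757, 3721 and 1776 CPM in KO, 4866, 641 and 864 CPM in Het and 14700, 5642 and 4011 CPM in WT libraries. Of the 19 transglutaminases and kallikreins listed, 6 were tested, and none passed in any of the 3 comparisons.

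The genotype comparisons ask whether loss of 1 or both Srd5a2 alleles goes with other levels of these genes. They share libraries with each other. In edgeR's quasi-likelihood test over all 16836 genes, 0 of the 10 genes were called in KO against WT, in Het against WT or in KO against Het, and the background was 0% of all genes in each comparison (601, 1522 and 1048 genes had an unadjusted p under 0.05). For Svs2 the log2 fold change was -0.34 in KO against WT (SE 1.21, 95% interval -3.15 to 2.46, edgeR adjusted p = 1), 0.70 in Het against WT (SE 1.22, edgeR adjusted p = 0.90) and -1.04 in KO against Het (SE 1.22, edgeR adjusted p = 0.984). Without Het 2 the last of these was 0.35, and the Het against WT value -0.71, and without WT 3 the KO against WT value was 0.66. Svs5 and Pate4 had values between -0.80 and 0.62 in the 3 comparisons, and single libraries decided them: Pate4 turned sign without WT 3 (0.70 in KO against WT), and without Het 2 both turned sign, to -1.02 and -0.73 in Het against WT and to 1.42 and 0.53 in KO against Het. Without WT 3, Svs5 in KO against WT was 1.53.

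The genes that were low in Het gave larger fold changes with wide intervals. For Sva the log2 fold change was 11.02 in KO against Het (SE 2.66, 95% interval 4.78 to 17.27, edgeR adjusted p = 0.64), -9.15 in Het against WT (SE 2.51, interval -15.05 to -3.25, adjusted p = 0.419) and 1.87 in KO against WT (SE 1.72, interval -2.17 to 5.92, adjusted p = 1). For Svs1 it was 9.82 in KO against Het (SE 2.84, edgeR adjusted p = 0.652), -7.51 in Het against WT (SE 2.59, adjusted p = 0.478) and 2.31 in KO against WT (SE 2.03, adjusted p = 1). Svs3a, Svs3b, Svs6 and Ceacam10 had 6.36 to 8.74 in KO against Het, -6.48 to -3.86 in Het against WT and 2.26 or more in KO against WT. These values also rested on single libraries. Without WT 3 the 6 genes had 4.69 to 5.27 in KO against WT (Svs1 5.13, Sva 5.17) and -5.85 to -1.69 in Het against WT (Svs1 -4.71, Sva -5.85). Without Het 2 they had 7.20 to 14.25 in KO against Het and -12.40 to -4.72 in Het against WT. Svs4 had 2.47 in KO against Het, -0.31 in Het against WT and 2.16 in KO against WT. Without Het 2 its first 2 values were 5.97 and -3.84, and without WT 3 its last 2 were 1.11 and 3.60. Its Het against WT value was also positive without Het 1 (0.27) or Het 3 (0.19), and was -0.83 without WT 1 and -0.54 without WT 2. The median over the 10 genes was 6.70 in KO against Het, -4.25 in Het against WT and 2.21 in KO against WT, beside 0.02, 0.00 and 0.01 over all genes.

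DESeq2 called 6 of the 10 genes as higher in KO against Het (Svs1, Svs3a, Svs3b, Svs6, Sva and Ceacam10, adjusted p 2.67e-05 to 0.0127; 0.907% of all genes were called) and 3 as lower in Het against WT (Svs1, Svs3b and Sva, adjusted p 0.00153 to 0.0334; 1.13% of all genes), while limma voom called none. DESeq2 called none of the 10 in KO against WT, where it called 0.0846% of all genes. In 7 of the 10 genes every KO library lay above every Het library, which held for 7.8% of all tested genes, and in 5 every KO library lay above every WT library, which held for 8.14%. As the levels of these genes were known when they were picked, nothing further is read from these counts.

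Other genes known from the seminal vesicle were not called either. Of the 16 listed, 10 were tested and 0 passed in any comparison in edgeR; 7 were positive in KO against WT (median log2 fold change 0.39), 6 in Het against WT (0.54) and 4 in KO against Het (-0.40). They did not share 1 order. Serpine2, which encodes a protease inhibitor, and Clu, which encodes clusterin, were highest in Het 2, at 2204 and 4243 CPM, and lowest in Het 1, at 107 and 203 CPM. Spink1, which encodes a trypsin inhibitor, was highest in Het 1, at 18820 CPM, and stood at 6.75 CPM in Het 2. The 16 genes summed to 8131 to 12710 CPM in KO, 7473 to 19450 CPM in Het and 2411 to 8499 CPM in WT, highest in Het 1. Spink1, which is also on the list of prostate secretory genes, made up 18820 of the 19450 CPM in Het 1. Doxl2, a neighbour and relative of Svs1, was at 1.70, 0.909 and 3.87 CPM in KO, at 0 in all 3 Het libraries and at 0, 0.399 and 4.71 CPM in WT, with its highest value in WT 3.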

How the data were processed

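Prostate RNA was sequenced from polyA-enriched libraries, per the labels' protocols. The authors deposited raw counts for every gene and library and a second file with FPKM; their file of FPKM means by genotype was not used. Builds named in the submitters' processing notes are GRCm38 and mm10. The labels name no aligner or counter and do not say whether strand was used. Genotypes come from the library names, and replicate numbers follow accession order and pair nothing. In a chi-square test of the counts, the most alike of the 36 pairs of libraries had a statistic of 40.0 per degree of freedom, so no pair was counted as 1 sample.

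Counts were fitted in edgeR 4.0.16 (R 4.3.3): TMM, filterByExpr, robust quasi-likelihood with genotype as the only factor over all 9 libraries, Benjamini-Hochberg adjustment over 16836 genes, calls at an adjusted p under 0.05. SE is the absolute log2 fold change over the square root of F. Levels are CPM on TMM-scaled library sizes; FPKM served for ranks and levels between genes. Scripts were tested on simulated data. Promoters come from RefSeq (GRCm38.p6) and were aligned with Biopython 1.88; coordinates of genes are those of the deposited table. Alternatives were DESeq2 1.42.0, limma voom (3.58.1), other scalings, no filter and leaving out libraries. The genes and lists were chosen with earlier results of these data known. Named genes are the 10 and the 5 nearest outside the set to Svs2, Svs5 and Svs1. Also named are neighbours within 100 kb averaging at least 10 CPM, Tgm4, Sbp, Pax2 and Srd5a2, and up to 4 per list. Doxl2, Clu, Serpine2, Spink1, Hoxb13, Acta1, Ckm, Crisp1, Defb1 and the Wolffian duct factors besides Pax2 were picked after their values were seen. So were the urothelial markers and 9530053A07Rik, Pbsn, Azgp1, Acpp and Fkbp5. An item withheld for evaluation is not reported here.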

Additional observations from a re-analysis of the deposited data

How the results depend on the processing

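No paired analysis was possible because the labels give no replicate numbers shared between genotypes. The count of the 10 genes called by edgeR stayed at 0 in all 3 comparisons with DESeq2 size factors, library sizes without genes over 1%, no filter, limma voom and each library left out (range 0 to 0). DESeq2 called 3 of them in Het against WT and 6 in KO against Het, and without the 3 libraries low in Sbp, a setting chosen after seeing the data that leaves 1 WT library, edgeR called 1 (Sva) in each of these comparisons. Over all genes, DESeq2 called 15 in KO against WT, 206 in Het against WT and 179 in KO against Het, against 0 each in edgeR; without a filter edgeR called 2 in KO against Het, and without the libraries low in Sbp 1 in Het against WT and 1 in KO against Het. With single libraries left out the counts ran from 0 to 1 in KO against WT, 0 to 258 in Het against WT and 0 to 18 in KO against Het, the highest each without Het 1.

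On FPKM the genes' mean share was 27.8% in KO, 23.8% in Het and 20.6% in WT, against 13.6%, 14.8% and 10.6% on counts. Dividing by gene length moves each ratio by a constant: the log2 ratio of Svs1 to Svs2 averaged -4.02 in KO and -15.0 in Het on FPKM, against -3.54 and -14.5 on counts (with 3 reads in place of the 0 of Svs1 in Het 1), and that of Svs5 to Svs2 1.31 in KO, 0.38 in Het and 0.58 in WT, against -0.31, -1.24 and -1.04. The fold changes of single genes turned sign in 26 of 450 values, all for Svs2, Svs4, Svs5 or Pate4; those of the other 6 genes kept their sign, and their sizes without WT 3 and Het 2 stand with the comparisons. Depth limits Svs1, Svs3a, Svs3b and Sva in Het, where 0 to 316 reads fell on each gene, and in WT 1, where 8 to 60 did. Svs6 had 3, 1677 and 168 reads in Het and 255 in WT 1.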
